A study of Mus musculus with 6 samples.

Results

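The 9 genes described here carry out retinoic acid synthesis, breakdown and reception, and were taken by symbol from a table of 29333 genes measured in mouse testes at postnatal day 16. They are Stra6, Rdh10, Aldh1a1, Aldh1a2, Aldh1a3, Cyp26a1, Cyp26b1, Rara and Rarg, all protein-coding and all found in the table. RNA sequencing compared whole testes of Hsf5 knockout mice with testes of controls, which the sample labels call wild type and which the design text allows to include Hsf5+/- animals. No source used here gives the knockout allele, or says whether a sample came from 1 animal or from a pool. The labels list 3 samples per group, of which knockout 1 and 3 and control 1 and 2 were analysed here. The labels do not say that samples of a group are separate animals, so the p-values cover the spread among these 4 libraries, which may be technical.

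Retinoic acid is made from retinol, vitamin A, in 2 oxidation steps, the retinol dehydrogenase RDH10 making retinal and the ALDH1A enzymes turning retinal into retinoic acid, while CYP26 enzymes hydroxylate it for clearance. It binds the nuclear receptors RARA, RARB and RARG, which sit with RXR partners on response elements of target genes. In the mouse testis it drives spermatogonia to differentiate and to enter meiosis, and its level is set by enzymes of Sertoli cells, germ cells and peritubular myoid cells.

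Recovered reads per library lay between 16209093 and 18557898. Hsf5 had a normalised read count of 1926 and 1602 in knockout 1 and 3, against 2541 and 3147 in control 1 and 2, so its transcript was lower but still counted in the knockouts. Marker lists of Sertoli, Leydig, peritubular myoid and germ cells were expressed in every library, and no marker with a row in the table was at 0 in all of them. Of the round spermatid markers Tnp1 and Sun5, and of the epididymal markers Lcn5 and Adam28, were not analysed here. Pachytene spermatocyte markers were lower in the knockouts, where their summed normalised read count was 28804 and 23075, against 75487 and 113290 in the controls. The controls also differed from each other by more than the knockouts did, with a chi-square per gene of 14.6 between controls and 5.08 between knockouts where sampling noise alone gives about 1.

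Of the 9 genes, Aldh1a2 fell and Rdh10 rose in the knockout testes, and the other 7 did not pass the test. The test was limma on log2(normalised read count + 1), with Benjamini-Hochberg adjustment over 17480 genes, and a gene was called at an adjusted p under 0.05. All 9 genes passed the filter on low values, a mean normalised read count of at least 10. Of all genes tested 16.8% were called, 3.28% of all genes tested being higher and 13.5% lower in the knockouts, so 1 gene higher and 1 lower of 9 is near the background. In 7 of the 9 genes the knockout and control libraries did not overlap, 5 of them higher and 2 lower, where 61.7% of all genes tested did not overlap, 29.8% higher and 31.9% lower. edgeR and DESeq2, run on read counts recovered from the table, each called Aldh1a2 lower and 0 of the 9 genes higher. Over all genes edgeR called 2.96% higher and 12.3% lower of 17480. DESeq2 called 3.35% higher and 13.5% lower of the 17141 genes with an adjusted p. At an unadjusted p under 0.05 edgeR had 4 of the 9 genes higher and 1 lower, beside 1950 higher and 3337 lower of 17480. DESeq2 had 3 higher and 1 lower at that limit, beside 1296 higher and 3087 lower. The authors' deposited table also calls Aldh1a2 lower and none of the 9 higher, beside 2.26% higher and 11.3% lower of the 20234 genes to which it gives an adjusted p. The median log2 fold change was 0.22 over the 9 genes and 0.01 over all genes tested.

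**Figure D1:**
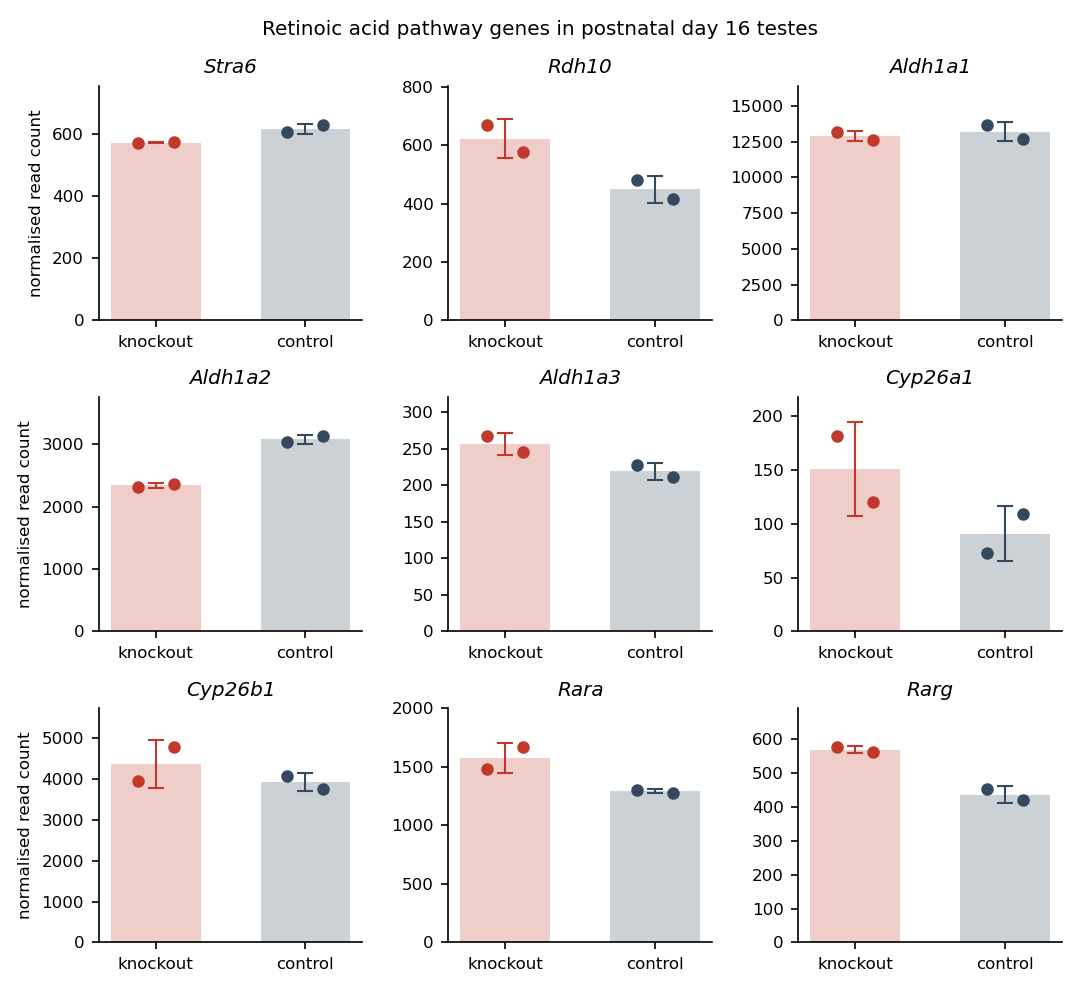
Normalised read count of each of the 9 genes in every library, with knockout libraries (red) left of control libraries (dark), bars at the group mean and error bars of 1 SD (n = 2 each). Aldh1a2 is lower and Rdh10 higher in both knockouts than in both controls, and Aldh1a1 and Cyp26b1 overlap between groups.

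The first step into the pathway was read from Stra6, the membrane receptor that takes up retinol from its plasma carrier RBP4. Its normalised read count was 571 and 575 in knockout 1 and 3, against 606 and 630 in control 1 and 2. The groups did not overlap, but the log2 fold change of -0.11 was about the size of its standard error of 0.11 (95% interval -0.36 to 0.14, limma Benjamini-Hochberg adjusted p = 0.546). With library totals as the scaling, the log2 fold change of Stra6 was 0.000812.

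Rdh10, the dehydrogenase that oxidises retinol to retinal, had a normalised read count of 668 and 575 in knockout 1 and 3, against 480 and 416 in control 1 and 2. Both knockouts lay above both controls. The mean was 622 ± 66.3 in the knockouts and 448 ± 44.9 in the controls (SD, n = 2 each), and the log2 fold change was 0.47 (SE 0.13, 95% interval 0.16 to 0.78). The limma Benjamini-Hochberg adjusted p of 0.0456 lay just inside the threshold. The call was lost without any 1 library (adjusted p 0.279 without knockout 1, 0.112 without knockout 3, 0.0781 without control 1 and 0.188 without control 2). For Rdh10 an adjusted p of 0.0703 stands in the authors' deposited table. Of 26 tested Sertoli cell markers 7 rose and none fell by limma, beside 3.28% of all genes tested higher and 13.5% lower. Their median was 0.19 on the log2 scale. Their summed normalised read count was 199170 and 188350 in the knockouts, against 172050 and 165080 in the controls. Of that sum Clu, which was not called, gave 72450 and 65289, against 61661 and 57954. With libraries scaled to the Sertoli cell markers, Rdh10 had a log2 fold change of 0.28 and no call (limma Benjamini-Hochberg adjusted p = 0.17). The part of Sertoli cells in the Rdh10 result was not tested.

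The ALDH1A enzymes, which make retinoic acid from retinal, did not move together. Aldh1a1, in the mouse testis chiefly a Sertoli cell enzyme, was the most abundant, with a normalised read count of 13138 and 12643 in knockout 1 and 3, against 13652 and 12705 in control 1 and 2. Knockout 1 lay between the controls. Its log2 fold change of -0.03 had the narrowest 95% interval of the 9 genes, -0.18 to 0.12 (limma Benjamini-Hochberg adjusted p = 0.79). Under the scaling to Sertoli cell markers Aldh1a1 passed the test as lower (-0.22, adjusted p = 0.0334), and with library totals its log2 fold change was 0.08. Aldh1a7, its close neighbour in sequence on the same chromosome 19, had 510 and 490 in the knockouts, against 402 and 455 in the controls, and no source used here says how reads shared by such paralogs were handled, so both values are uncertain to that extent.

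Aldh1a2, the retinaldehyde dehydrogenase that germ cells of the mouse testis express, had a normalised read count of 2315 and 2370 in knockout 1 and 3, against 3032 and 3132 in control 1 and 2. Replicates of each group lay close together and the groups were well apart. The mean was 2343 ± 39.2 in the knockouts and 3082 ± 70.6 in the controls (SD, n = 2 each), so the knockouts stood at 76.0% of the controls. This was a log2 fold change of -0.40 (SE 0.07, 95% interval -0.56 to -0.23) with a limma adjusted p of 0.00793. For Aldh1a2 a log2 fold change of -0.40 and an adjusted p of 0.00102 stand in the authors' deposited table. The call was lost without knockout 1 (adjusted p = 0.0664) and without knockout 3 (0.0637), where the lone knockout is assumed to vary like the other libraries, while the log2 fold change lay between -0.42 and -0.37 whichever library was left out. Of 19 tested pachytene spermatocyte markers 17 fell, and the list's median was -1.86 on the log2 scale. That list differed between the controls by a median of 0.64 (control 2 minus control 1, log2), and Aldh1a2 by 0.05. Of 20 early meiotic prophase markers 5 fell (median -0.13), and of 8 tested round spermatid markers 4 fell (median -1.17). These marker counts, by limma, stand beside 13.5% of all genes tested being lower. The part of these germ cell stages in the Aldh1a2 result was not tested, and in whole testis fewer cells of a type and less RNA per cell cannot be told apart.

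The promoter of Aldh1a2 is printed because it is the gene with the smallest p-value of the 9. It was read from RefSeq (GRCm38.p6, chr9:71215539-71215798, plus strand, 250 bases before the annotated start and 10 from it on), and capitals mark TATATA.
Aldh1a2: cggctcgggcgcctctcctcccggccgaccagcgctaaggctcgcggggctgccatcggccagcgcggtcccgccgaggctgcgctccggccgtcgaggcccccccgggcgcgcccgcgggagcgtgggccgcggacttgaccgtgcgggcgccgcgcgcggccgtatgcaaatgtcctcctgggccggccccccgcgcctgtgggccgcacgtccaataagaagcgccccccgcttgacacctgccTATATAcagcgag
The stretch is 76.5% G and C. TATAAA or TATATA, searched on both strands, was found for 3 of the 7 genes with a RefSeq promoter. It was found for 19.6% of all 27025 genes with a window, and in 17.1% of all 32851 promoter windows. Relative to the annotated start, the matches lay at -3 to 2 in Aldh1a2, 29 to 34 in Cyp26a1 and -139 to -134 in Cyp26b1. GAANNTTC, paired core repeats of the heat shock element, was found for none of the 7 genes, beside 9.04% of all genes with a window and 7.86% of all windows. That says only that these letters are not in these windows.

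Aldh1a3, the third enzyme of the family, had a normalised read count of 268 and 246 in knockout 1 and 3, against 228 and 211 in control 1 and 2. Both knockouts lay above both controls, by less than the test requires (log2 fold change 0.22, 95% interval -0.13 to 0.58, limma Benjamini-Hochberg adjusted p = 0.375). Per kilobase of exon the 3 enzymes summed to 3742 and 3661 normalised reads in the knockouts, against 4154 and 4002 in the controls. Aldh1a2 made up 27.3% and 28.6% of that sum in the knockouts, against 32.2% and 34.6% in the controls. Aldh1a1 made up 71.1% and 70.0% in the knockouts, against 66.6% and 64.3% in the controls. A share within a library does not depend on how libraries are scaled, but its size depends on the exon length taken for each gene.

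**Figure D2:**
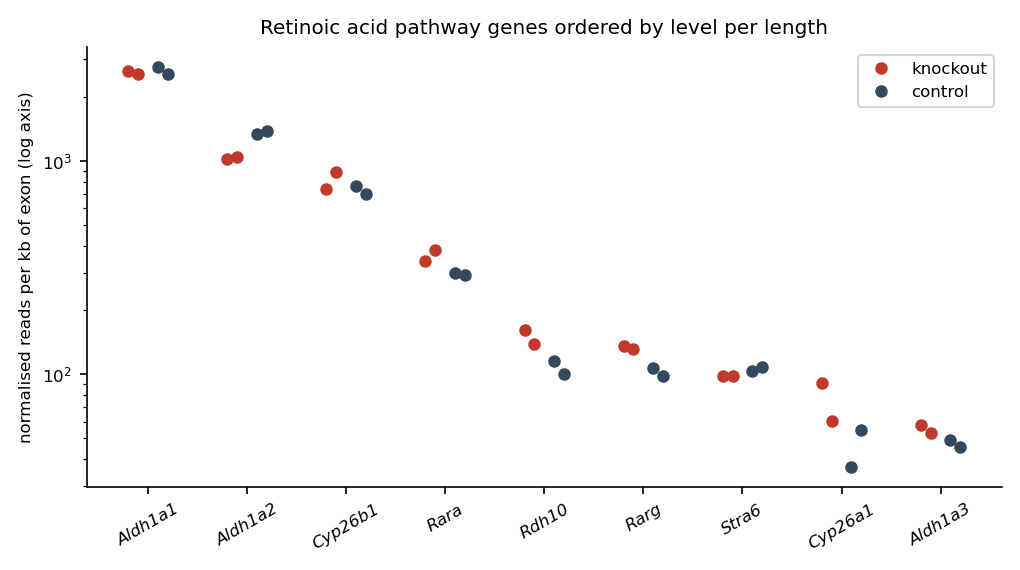
Normalised reads per kilobase of exon (log axis) of each gene in every library, knockout libraries (red) left of control libraries (dark) within each gene, ordered by the mean of the 4 libraries. Aldh1a1 has the highest mean (libraries at 2561 to 2765) and Aldh1a3 the lowest (45.7 to 58.0). The lowest single library is that of Cyp26a1, which spans 36.7 to 91.5.

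This scale divides by the joined length of all exons annotated for a gene in GENCODE M21, whether or not the testis uses them. On it the mean over the 4 libraries was 2640 for Aldh1a1, 1198 for Aldh1a2, 775 for Cyp26b1 and 328 for Rara. The ranges of these 4 genes over the libraries did not overlap their neighbours in the order. Rdh10 (mean 129 normalised reads per kilobase), Rarg (118) and Stra6 (102) followed, and their ranges overlapped, so their order is not set by these data. Cyp26a1 (60.9) and Aldh1a3 (51.6) came last, also with overlapping ranges. The synthesis enzyme Aldh1a1 was 2.20 times as high as Aldh1a2 in mean level per length, with 4937 and 2264 exon bases as divisors. Before that division the mean normalised read count was 13035 for Aldh1a1 and 2712 for Aldh1a2. Ratios and order between genes thus depend on the exon length taken, and other lengths were not tried.

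Retinoic acid breakdown was represented by the hydroxylases Cyp26a1 and Cyp26b1. Cyp26b1, known in the mouse testis from peritubular and Sertoli cells, had a normalised read count of 3961 and 4783 in knockout 1 and 3, against 4087 and 3762 in control 1 and 2. The groups overlapped, since knockout 1 lay below control 1 (log2 fold change 0.15, 95% interval -0.08 to 0.38, limma Benjamini-Hochberg adjusted p = 0.348). With libraries scaled to Sertoli cell markers its log2 fold change was -0.04. None of 9 tested peritubular myoid markers was called by limma (median 0.07), nor were any of 13 Leydig (median -0.22), 11 macrophage (0.11), 9 endothelial (0.19) or 3 epididymal (0.27) markers.

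Cyp26a1, the CYP26 gene best known for being induced by retinoic acid itself, had a normalised read count of 181 and 120 in knockout 1 and 3, against 72.7 and 109 in control 1 and 2. Both knockouts lay above both controls, but knockout 3 and control 2 were close and the libraries within each group spread widely. The log2 fold change of 0.72 was the largest of the 9 genes and also the least certain (SE 0.29, 95% interval 0.06 to 1.38, before adjustment), and it did not pass the test (limma Benjamini-Hochberg adjusted p = 0.131). It lay between 0.42 and 1.02 when 1 library was left out. Per kilobase Cyp26a1 made up 11% and 6.34% of the summed Cyp26a1 and Cyp26b1 level in the knockouts, against 4.58% and 7.26% in the controls.

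The Cyp26a1 promoter is printed because it holds a retinoic acid response element of the DR5 type, a direct repeat of a hexamer with 5 bases between the copies. The same search covered both strands of 250 bases before to 50 bases after each start. It found DR5 in 32 of 32851 RefSeq promoter windows (0.0974%), which belong to 31 of 27025 genes (0.115%). Cyp26a1 was the only 1 of the 7 genes with a window to hold DR5. Among the other retinoid genes it was also found for the receptor gene Rarb, of which a 41-base stretch is shown for comparison. Capitals mark DR5, Cyp26a1 is on the plus strand (GRCm38.p6, chr19:37697558-37697807) and Rarb on the minus strand (GRCm38.p6, chr14:16575501-16575541), each read 5′ to 3′ along its gene.
Cyp26a1: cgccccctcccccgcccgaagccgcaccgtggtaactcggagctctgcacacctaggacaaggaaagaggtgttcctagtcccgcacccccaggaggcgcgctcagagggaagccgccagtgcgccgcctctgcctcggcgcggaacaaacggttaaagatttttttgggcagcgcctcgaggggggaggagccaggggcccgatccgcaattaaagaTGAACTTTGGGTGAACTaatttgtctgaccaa
Rarb: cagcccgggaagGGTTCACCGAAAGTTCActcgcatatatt
Read on the strand that gives the hexamers, the Cyp26a1 element is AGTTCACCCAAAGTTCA and lies 32 to 16 bases before the start. The Rarb element lies 53 to 37 bases before its start, overlaps a GAANNTTC match, and has the same base at 15 of 17 positions, differing by A1G and C9G, counted from 1 at the 5′ end of the Cyp26a1 element. Rarb was near the limit of detection, with 5.01 and 5.12 normalised reads in the knockouts, against 4.85 and 3.97 in the controls, and was not tested. DR2, the same repeat with 2 bases between the copies, was found in 88 windows (0.268%) of 84 genes (0.311%), and for none of the 7 genes. A match is a description of the sequence and not of a bound site.

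The receptors Rara and Rarg were both higher in both knockout libraries and both missed the threshold. Rara, whose product acts in Sertoli cells and germ cells, had a normalised read count of 1481 and 1668 in knockout 1 and 3, against 1304 and 1278 in control 1 and 2. The groups did not overlap, and the log2 fold change was 0.28 (SE 0.09, 95% interval 0.07 to 0.50 before adjustment, limma Benjamini-Hochberg adjusted p = 0.0739). Rarg, the receptor of differentiating spermatogonia, had 577 and 562 in the knockouts, against 455 and 419 in the controls. Its log2 fold change was 0.38 (SE 0.12, 95% interval 0.11 to 0.65 before adjustment, limma Benjamini-Hochberg adjusted p = 0.06). In the authors' deposited table the adjusted p is 0.127 for Rara and 0.166 for Rarg. Of 18 tested spermatogonia markers 4 rose and 1 fell by limma, beside 3.28% of all genes tested higher and 13.5% lower. Their median was 0.24 on the log2 scale, and the controls differed by a median of -0.21 (control 2 minus control 1, log2). The marker that fell, Id4, had a log2 fold change of -0.92 (limma Benjamini-Hochberg adjusted p = 0.0038). The list's summed normalised read count was 23901 and 23390 in the knockouts, against 22012 and 19292 in the controls. The part of spermatogonia in the receptor values was not tested. Rara made up 71.5% and 74.3% of the summed Rara and Rarg level per kilobase in the knockouts, against 73.7% and 74.8% in the controls, so the balance of the receptors overlapped between groups.

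**Figure D3:**
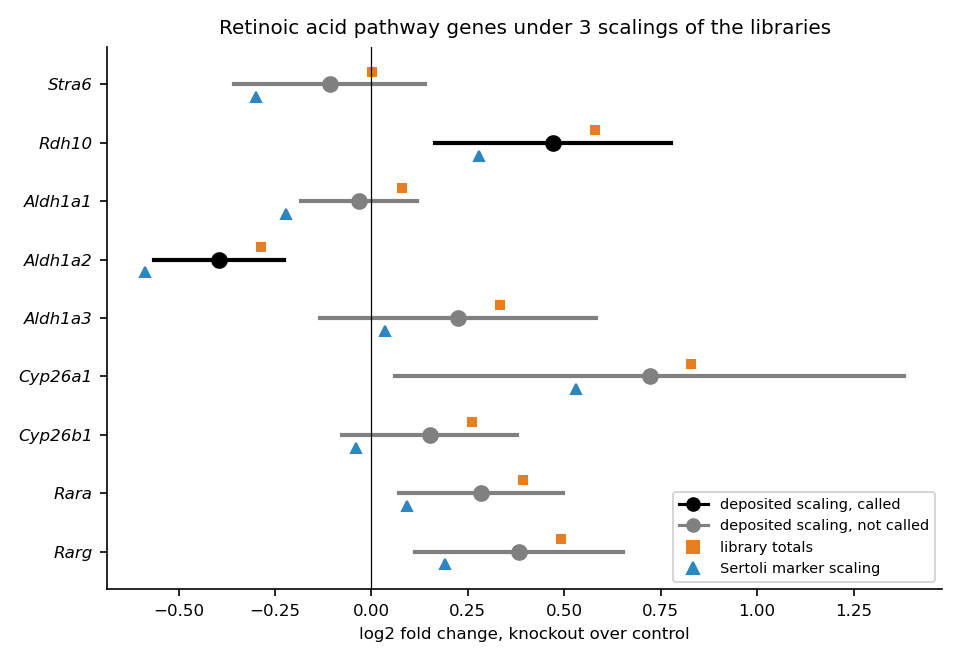
Log2 fold change of knockout over control for each gene with the deposited scaling (circles, bars are unadjusted 95% intervals, black where called), with library totals (squares) and with libraries scaled to Sertoli cell markers (triangles). The scalings shift all genes nearly alike: Aldh1a2 stays below 0 under each, Rdh10, Cyp26a1, Rara, Rarg and Aldh1a3 above 0, and Aldh1a1, Cyp26b1 and Stra6 lie near or on either side of 0.

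The scaling of libraries sets how many of these differences pass. Library totals moved the median of all genes tested by 0.11 and scaling to Sertoli cell markers moved it by -0.19 (log2). Such a scaling multiplies all genes of a library by the same factor, so values relative to that median are nearly fixed beforehand. Relative to it Aldh1a2 lay at -0.41 and Rdh10 at 0.46 with the deposited scaling, library totals and Sertoli scaling alike. With library totals 3 of the 9 genes were higher by limma (Rdh10, Rara and Rarg) and 1 was lower. Of all 17502 genes tested with that scaling, 1513 were higher and 2006 lower. With Sertoli scaling none was higher and 2 were lower (Aldh1a1 and Aldh1a2), beside 113 higher and 4113 lower of all 17512 genes tested. Falls made up 80.5% of all calls with the deposited scaling, 57.0% with library totals and 97.3% with Sertoli scaling.

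**Figure D4:**
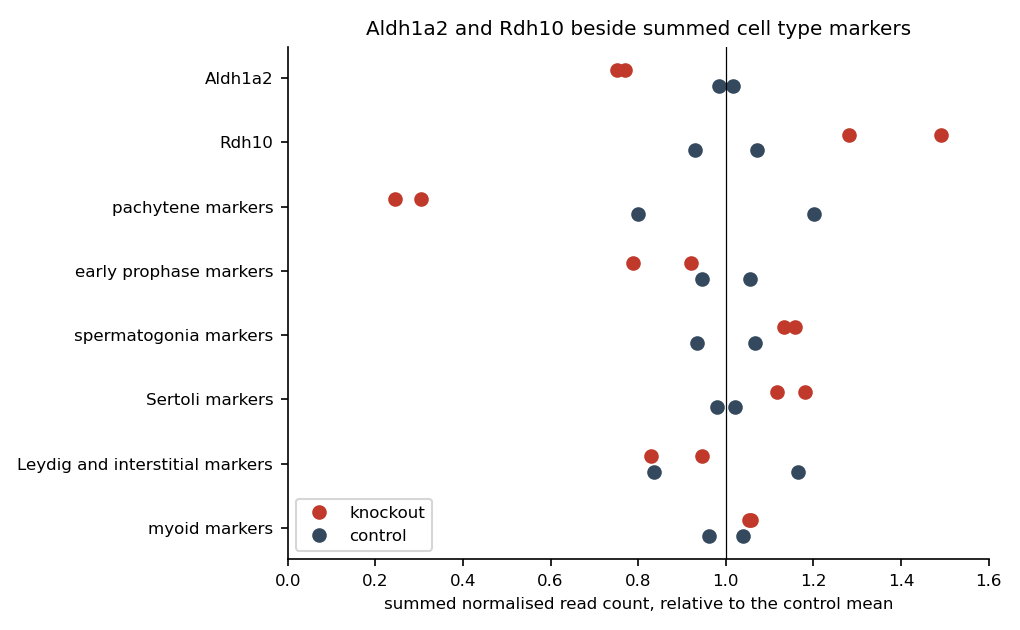
Normalised read count of Aldh1a2 and Rdh10, and summed normalised read count of 6 cell type marker lists, relative to the control mean, with knockout libraries (red) above control libraries (dark) in each row. Pachytene markers are far below the controls in both knockouts, while Aldh1a2 averages 76.0% and Rdh10 139% of the control mean.

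Genes with the closest pattern were sought among 11318 protein-coding genes with a mean normalised read count of at least 100, by Euclidean distance between log2 values centred over the 4 libraries. Closest to Aldh1a2 were Btbd7 (distance 0.00664), the apoptosis inhibitor gene Birc5 (0.0153), which also acts in chromosome segregation, and the dynein light intermediate chain gene Dync1li2 (0.0208). Closest to Rdh10 were the TGF-beta signal transducer gene Smad3 (0.0317), Cdc42ep5 (0.0328) and Pcp4l1 (0.0447). Within a distance of 0.1 there were 167 genes for Aldh1a2 and 39 for Rdh10, so with 4 libraries such a pattern is shared by many genes.

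The rest of the pathway was followed in a list of 39 further retinoid genes, of which 35 were in the table and 28 were tested. In that list 4 rose and 1 fell by limma (median 0.14 on the log2 scale), beside 3.28% of all genes higher and 13.5% lower. Rdh11, which interconverts retinol and retinal, fell most. It had a normalised read count of 1048 and 915 in knockout 1 and 3, against 1805 and 2807 in control 1 and 2. That is a difference of -1.20 on the log2 scale (SE 0.18) with a limma adjusted p of 0.00309, and the call held without each library in turn (adjusted p from 0.00159 to 0.0395). The controls were 0.64 apart on the log2 scale for Rdh11, as far as the pachytene markers, whose part in this fall was not tested.

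Dhrs3, a reductase that returns retinal to retinol, rose, with 295 and 286 normalised reads in the knockouts, against 206 and 164 in the controls (log2 fold change 0.66, SE 0.17, limma Benjamini-Hochberg adjusted p = 0.0338). It is known to be induced by retinoic acid, and both knockouts lay above both controls. Nrip1, a corepressor gene of nuclear receptors, rose as well. It had 989 and 1040 in the knockouts, against 836 and 757 in the controls (log2 fold change 0.35, adjusted p = 0.0493 by limma). Leaving out any 1 library ended the calls of Dhrs3 (limma Benjamini-Hochberg adjusted p from 0.0564 to 0.178) and Nrip1 (0.0638 to 0.287). Neither gene is called in the authors' deposited table, where the adjusted p is 0.0729 for Dhrs3 and 0.0955 for Nrip1. Cyp26c1, the remaining CYP26 gene, had 23.1 and 19.5 normalised reads in the knockouts, against 10.7 and 11.9 in the controls, and was not called (log2 fold change 0.85, limma Benjamini-Hochberg adjusted p = 0.253).

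**Figure D5:**
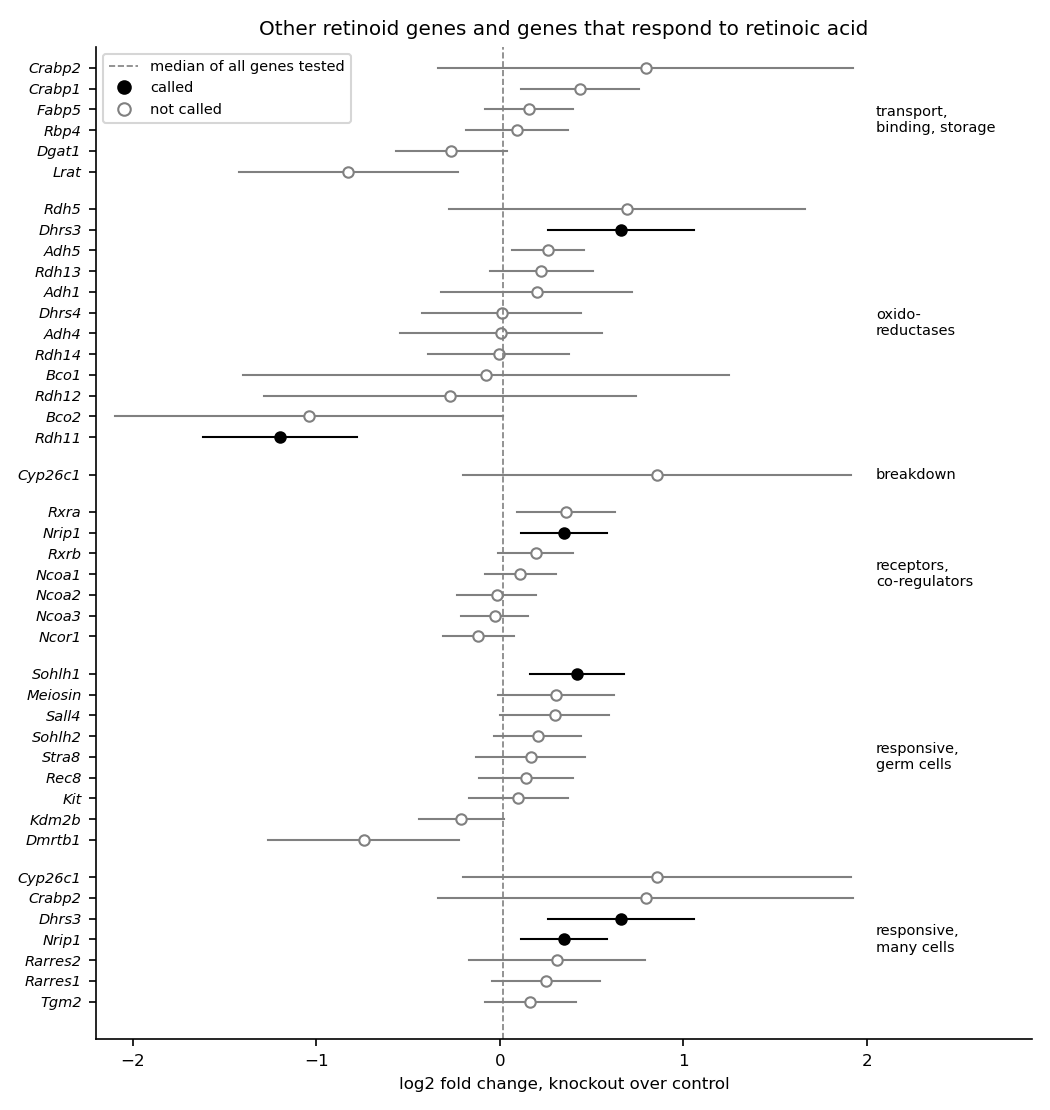
Log2 fold change of knockout over control for tested genes of the other retinoid lists and of the lists of genes that respond to retinoic acid, with unadjusted 95% intervals. Filled circles were called by limma, and the dashed line is the median of all genes tested at 0.01. Rdh11 at -1.20 is the called gene furthest from 0.

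Genes known to respond to retinoic acid were listed as 9 germ cell genes and 12 genes of many cell types, of which 17 were tested. By limma 4 rose and 0 fell, beside 3.28% of all genes tested higher and 13.5% lower. At an unadjusted limma p under 0.05 there were 5 higher and 1 lower, beside 1896 higher and 3522 lower of all 17480 genes. edgeR called 2 higher and 0 lower, DESeq2 3 higher and 0 lower, and limma with any 1 library left out 0 to 1 higher and 0 to 1 lower. The median of the 17 was 0.30 on the log2 scale. Among those that rose by limma were Dhrs3 and Nrip1, which are also in the retinoid list, and Sohlh1, a transcription factor of spermatogonial differentiation. Sohlh1 had 722 and 749 normalised reads in the knockouts, against 578 and 521 in the controls (log2 fold change 0.42, limma Benjamini-Hochberg adjusted p = 0.0351), and its call was lost without any 1 library (adjusted p from 0.0564 to 0.227). In the authors' deposited table Sohlh1 has an adjusted p of 0.0684 and is not called. Sohlh1 is also one of the spermatogonia markers. Stra8, the retinoic acid target that licenses meiotic entry and a gene named here after its values were seen, had 2974 and 2408 normalised reads in the knockouts, against 2653 and 2137 in the controls. The groups overlapped for Stra8 (log2 fold change 0.17, 95% interval -0.13 to 0.46, limma Benjamini-Hochberg adjusted p = 0.425).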

How the data were processed

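The authors' deposited table of 29333 genes gives per library a signal, the read count divided by 1 size factor, and, per the file headers, the authors' log2 fold change, its error, a test statistic score and raw and adjusted p-values. Tools named in the submitters' processing notes are DESeq2, featureCounts, Bowtie2 and cutadapt, with the build mm39; no source used here gives versions, settings, strand handling or annotation. All values (100%) were whole multiples of 1 step per library within 1e-06, which gave the recovered reads, 16209093 to 18557898 per library. Knockout 2 and control 3 were not analysed here.

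The design named limma (version 3.58.1, R 4.3.3) with a mean-variance trend on log2(value + 1), 2 residual and 6.3 prior degrees of freedom. Fold changes on that scale understate the change of low genes. edgeR (4.0.16) and DESeq2 (1.42.0) were run on the recovered reads. The scripts were tested on simulated data. All 9 genes were named, and of each other retinoid or responsive list every called gene, or the most abundant where none was called, except for some called genes that are not reported here. The members and lists were chosen with earlier results of these data known. Exon lengths came from GENCODE M21 (GRCm38), matched by gene ID, as the joined length of all annotated exons of a gene. In that annotation no exon of another gene overlapped the exons of the 9 genes. Promoters came from RefSeq, which had windows for 7 of the 9. No columns were unmapped.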

Additional observations from a re-analysis of the deposited data

How the results depend on the processing

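In 13 alternative settings Aldh1a2 stayed lower, between -0.59 and -0.29 on the log2 scale, and lost its call in 3: without the mean-variance trend (-0.40, limma Benjamini-Hochberg adjusted p = 0.135) and without either knockout. Leaving out 1 library gave -0.42 to -0.37. Rdh10 stayed higher and lost its call in 9 of the 13: with no filter on low values (0.47, adjusted p = 0.143) or no trend (0.47, adjusted p = 0.177), with Sertoli scaling (0.28), edgeR (0.49, adjusted p = 0.0597) and DESeq2 (0.48, adjusted p = 0.0515), and without each library (0.36 to 0.58). Of the 9 genes 1 was higher; this became 3 with library totals and 0 with no filter, no trend, Sertoli scaling, edgeR, DESeq2 or any library left out. The 1 lower gene became 0 without the trend, 2 with Sertoli scaling and 0 to 1 with a library left out. The sign turned for Aldh1a1 with library totals (0.078) and without control 1 (with a library left out -0.083 to 0.021), for Cyp26b1 with Sertoli scaling (-0.041) and for Stra6 with library totals (0.000812). The cause was not tested.

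Over all genes, 573 were higher and 2366 lower. No filter gave 37 and 815, no trend 0 and 40, Sertoli scaling 113 and 4113, library totals 1513 higher, and a library left out 71 to 308 higher and 1086 to 2054 lower. Of the other retinoid genes 4 were higher and 1 lower: with no filter 0 and 0, with no trend 0 and 0, with Sertoli scaling 0 and 3, with library totals 8 higher, with edgeR 2 higher, and with a library left out 0 to 3 higher and 1 lower. Of the responsive genes 4 were higher and 0 lower: no filter 0 higher, no trend 0 higher, Sertoli scaling 0 higher and 2 lower, edgeR 2 higher, and a library left out 0 to 1 higher and 0 to 1 lower. No paired analysis was possible because the libraries analysed share only 1 replicate number between groups. With 2 libraries per group the p-values rest largely on variance pooled over genes, and counts of about 100, as for Cyp26a1, limit the precision.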
